A study of Saccharomyces cerevisiae with 6 samples.

Results

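The genes described here encode enzymes of central carbon metabolism in Saccharomyces cerevisiae: glycolysis, the pyruvate dehydrogenase complex, the conversion of acetaldehyde to acetyl-CoA, the pentose phosphate pathway, other sources of NADPH, and gluconeogenesis. They were chosen by gene symbol, with earlier results of these data known, and 33 of the 979 yeast genes measured on the array had such a symbol. These comprised 9 genes of upper glycolysis (glucose to triose phosphates), 9 of lower glycolysis (triose phosphates to pyruvate), 7 of the pentose phosphate pathway, and 2 each of the other 4 branches. No gene of ethanol fermentation was among them, so that branch was not analysed here, and neither were HXK2, TDH2, TDH3, PDC1, ADH1, ALD6, TKL1 or TAL1.

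The 6 samples were one-colour oligonucleotide arrays of total RNA, amplified and labelled with biotin. In 3 of them the RNA came from yeast overexpressing ACC1, the gene of acetyl-CoA carboxylase, and in the other 3 from a wild type strain. The sources used here do not state the background strain, the promoter or plasmid that drove ACC1, the medium or the growth phase. The replicates carry the numbers 1 to 3 in each group, and nothing in the labels says that they came from separate cultures, so the p-values below measure the spread between arrays, which may be technical.

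Acetyl-CoA carboxylase turns acetyl-CoA into malonyl-CoA, the building block of fatty acids. Glycolysis yields the pyruvate from which yeast makes acetyl-CoA, by way of pyruvate dehydrogenase in mitochondria and by way of acetaldehyde and acetate in the cytosol. The oxidative pentose phosphate pathway supplies NADPH, which fatty acid synthesis consumes, and gluconeogenesis runs from pyruvate back to hexose phosphates through a few enzymes of its own.

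Each gene was read by a single probe of 35 bases, printed in 2 or 3 spots. The probes that carry the differences described below are shown so that their targets can be identified, with capitals marking the base at which the ENO1 and ENO2 probes differ.
ENO1: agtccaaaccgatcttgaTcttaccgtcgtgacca
ENO2: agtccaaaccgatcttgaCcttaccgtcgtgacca
GPM1: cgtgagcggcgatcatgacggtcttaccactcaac
GPM2: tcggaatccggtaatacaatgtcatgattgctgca
TDH1: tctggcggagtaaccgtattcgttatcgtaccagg
FBA1: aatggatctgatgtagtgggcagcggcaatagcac
PFK1: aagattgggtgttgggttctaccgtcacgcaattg
PFK26: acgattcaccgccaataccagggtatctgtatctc
LAT1: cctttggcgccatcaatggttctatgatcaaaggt
FBP1: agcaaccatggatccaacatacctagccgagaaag
The names of all 33 probes give their positions in descending order, and the reverse complement of each could be read without a stop codon in the frame those positions set, so the letters as deposited run antisense to the coding sequence. The sources used here do not state which strand was placed on the array. The ENO1 and ENO2 probes cover the same bases of their open reading frames, 708 to 742, and differ by a single substitution, T19C, counted from the 5′ end with the ENO1 base first. The signals of these enolase genes may therefore be mixed, and how far was not tested. The other 31 probes shared runs of at most 8 to 12 bases with any other probe on the array. TDH1 has close relatives in TDH2 and TDH3, whose share in its signal was not tested.

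All levels are log2 of the median foreground intensity after quantile normalization, which gives every array the same distribution of values, and all differences are ACC1 overexpression minus wild type on that scale. The ACC1 probe served as the check of the labels. It read 14.00, 14.12 and 14.13 on the ACC1 overexpression arrays, against 11.67, 11.76 and 11.87 on the wild type arrays, a difference of 2.32 (SE 0.07, adjusted p = 1.18e-07 by limma) or 4.99-fold. Before normalization the median intensity over yeast spots was 1900 ± 114 in ACC1 overexpression and 4120 ± 440 in wild type (SD, n = 3 each), so overall brightness moved with the groups. Its part in the differences below was not tested, and with these 6 arrays it cannot be told apart from the group. Of the 33 central carbon genes, 26 exceeded the 95th percentile of 26 control probes on all 6 arrays, and GPM3, PDX1 and SOL3 did so on none. No spot of these genes was saturated.

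By limma, 0 of the 33 genes reached an adjusted p of 0.05, beside 3.47% of all genes (34 of 979). Over all genes 2.66% rose and 0.817% fell. At an unadjusted p of 0.05, 9 of the 33 genes (27.3%) passed, beside 20.1% of all genes. Of these, 7 (21.2%) were higher in ACC1 overexpression, beside 10.6% of all genes, namely FBA1, TDH1, GPM1, GPM2, ENO2, LAT1 and FBP1. PFK1 and PFK26 (6.06%) were lower, beside 9.5% of all genes. At an adjusted p of 0.10 the count was 4 (12.1%: ENO2, LAT1, PFK1 and PFK26), beside 6.95% of all genes. The values of the groups did not overlap for 9 genes (27.3%), beside 24.7% of all genes. In 4 of these (12.1%, against 13.3% of all genes) ACC1 overexpression was the higher, and in 5 (15.2%, against 11.4% of all genes) it was the lower. The sign of the difference was positive in 17 of 33 genes, beside 46.4% of all genes.

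**Figure D1:**
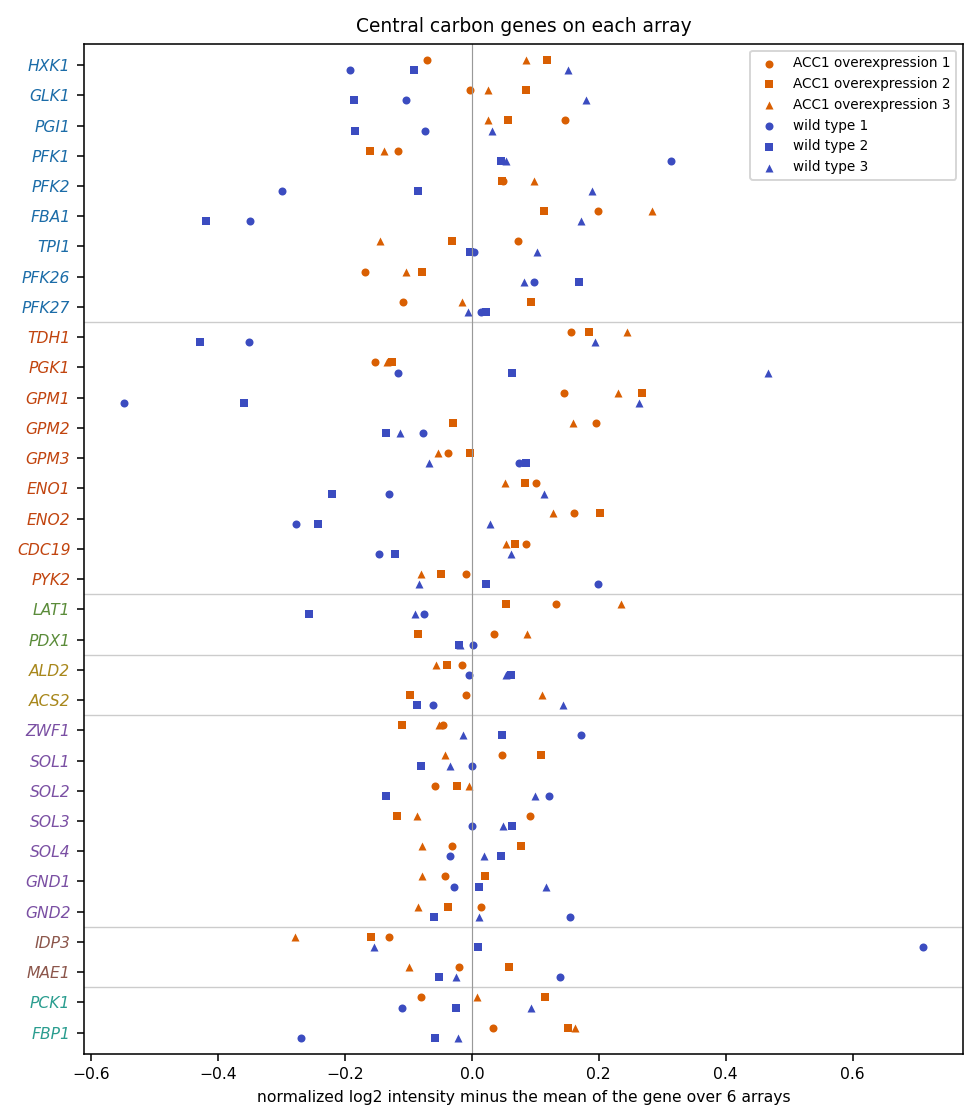
Normalized log2 intensity of the 33 genes on each of the 6 arrays, as the deviation from the mean of the gene over the arrays (horizontal axis), with a row for each gene. Orange marks stand for ACC1 overexpression, blue marks for wild type, and the shape gives the replicate number. For FBA1, TDH1 and GPM1 the mark of wild type replicate 3 lies among the ACC1 overexpression marks, away from wild type replicates 1 and 2.

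The median difference was 0.16 over the 9 genes of lower glycolysis, 0.07 over the 9 genes of upper glycolysis and −0.07 over the 7 genes of the pentose phosphate pathway, beside 0.00 over all 33 genes and −0.01 over all 979. The branches of 2 genes each had medians of 0.15 (pyruvate dehydrogenase complex), 0.13 (gluconeogenesis), −0.04 (acetaldehyde to acetyl-CoA) and −0.21 (other NADPH sources). Single genes covered a wider range, from −0.27 to 0.43 in lower glycolysis and from −0.28 to 0.40 in upper glycolysis. In the pentose phosphate pathway they ran from −0.14 to 0.08. These values carry no background correction. SOL3 was above the control probes on no array and GND1 on 1 array of each group. Over all settings tried, SOL3 ran from −0.27 to 0.10, GND1 from −0.26 to 0.08 and ZWF1 from −0.27 to −0.09. GPM1 of lower glycolysis ran from 0.26 to 0.67. How far signal over background set these ranges was not tested. Differences were positive for 6 of 9 genes in lower glycolysis, 5 of 9 in upper glycolysis and 1 of 7 in the pentose phosphate pathway. With arrays scaled to a common median these counts were 7 of 9, 7 of 9 and 3 of 7, while the median over all 979 genes moved to 0.05. The pentose phosphate gene that was positive as analysed was SOL1, counted as a relative of the lactonases. Those that turned positive with a common median were SOL3 and GND1. The lower glycolysis counts take ENO1 and ENO2 separately, though their probes differ by 1 base, and include GPM2, which was dim. No difference between sub-pathways was tested.

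**Figure D2:**
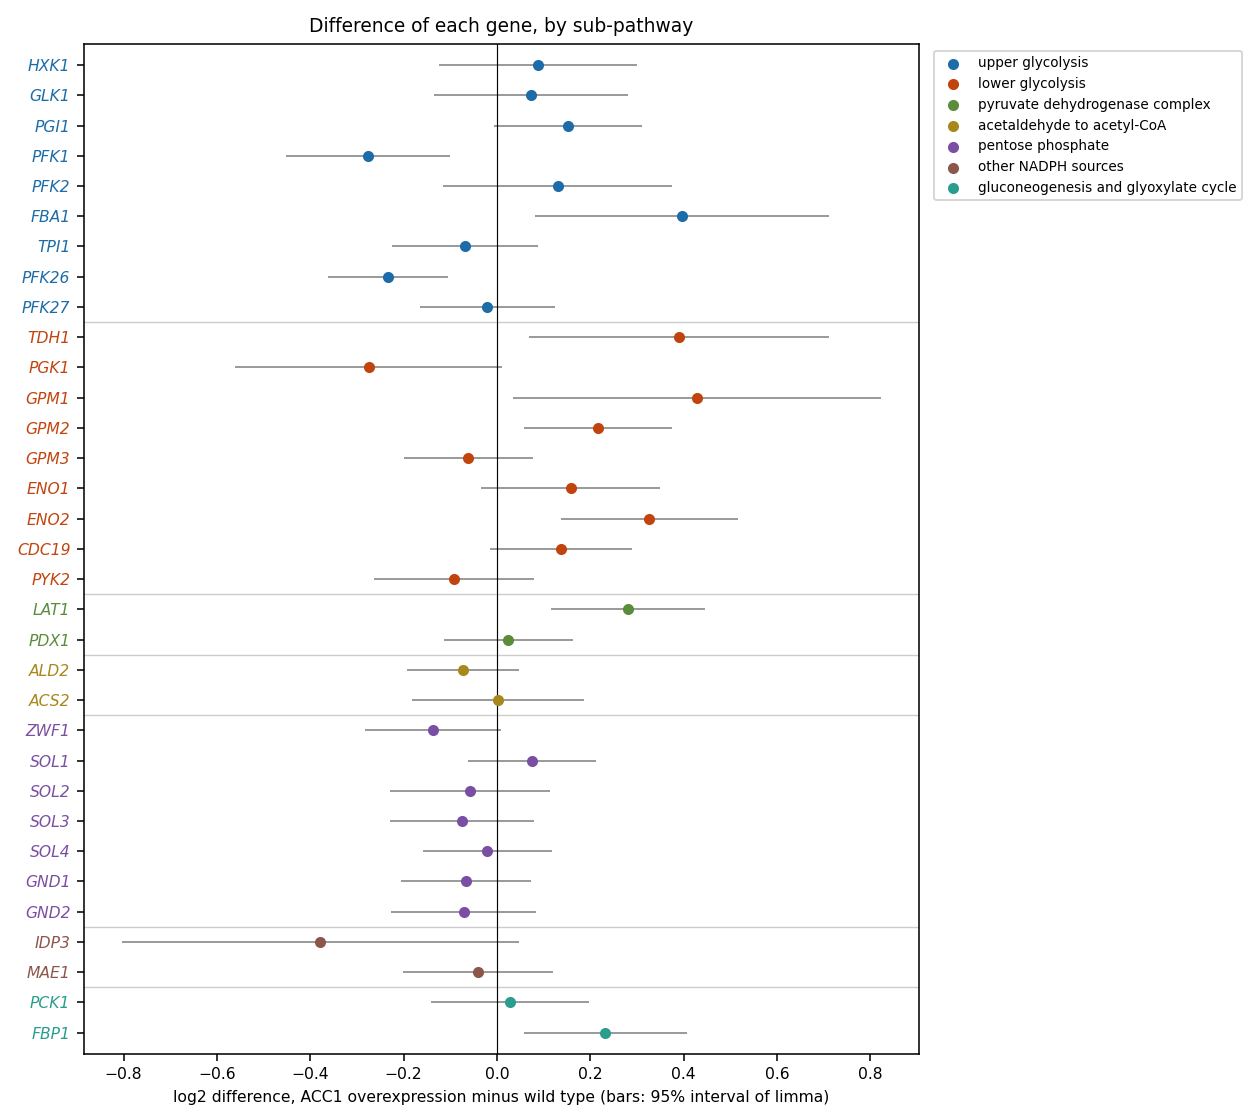
Log2 difference of each gene, ACC1 overexpression minus wild type, with the 95% interval of limma as a bar and colours for the sub-pathways. The points of the pentose phosphate genes lie between −0.14 and 0.08, while those of upper and lower glycolysis spread to either side of 0. No background correction was applied, and SOL3 and GND1 were dim.

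In upper glycolysis the lowest differences belonged to PFK1, a subunit of phosphofructokinase, and to PFK26. PFK26, a 6-phosphofructo-2-kinase that makes fructose 2,6-bisphosphate, the activator of phosphofructokinase, read 12.60, 12.69 and 12.66 in ACC1 overexpression, against 12.86, 12.93 and 12.85 in wild type. Every ACC1 overexpression array lay below every wild type array, and the difference of −0.23 had an SE of 0.06 and an adjusted p of 0.0604. It ranged from −0.33 to −0.21 over all settings tried and passed the threshold when the arrays were scaled to the same median (−0.33, adjusted p = 0.0193 by limma) and with cyclic loess (−0.29, adjusted p = 0.0445 by limma). Under the first of these settings 3 of the 33 genes passed (PFK26, PFK1 and GPM2), beside 7.56% of all genes, and under the second PFK26 alone, beside 3.17%. PFK27, the second form of that kinase, had a difference of −0.02 with a 95% interval from −0.17 to 0.12.

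PFK1, the alpha subunit of phosphofructokinase, read 12.16, 12.11 and 12.14 in ACC1 overexpression, against 12.59, 12.32 and 12.33 in wild type. The groups did not overlap, and wild type replicate 1 stood apart from the other wild type arrays. The difference was −0.28 (SE 0.08, adjusted p = 0.0975 by limma), and −0.33 with a common median (adjusted p = 0.0468 by limma). Without wild type replicate 1 it was −0.19. PFK2, the beta subunit of the same enzyme, had a difference of 0.13 with an interval from −0.12 to 0.37, and without wild type replicate 1 it was 0.01.

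FBA1, the aldolase that splits fructose 1,6-bisphosphate, read 12.62, 12.53 and 12.70 in ACC1 overexpression, against 12.07, 12.00 and 12.59 in wild type. Wild type replicates 1 and 2 were low and replicate 3 lay within the ACC1 overexpression values. The difference was 0.40 (SE 0.14, adjusted p = 0.158 by limma). TPI1, triose phosphate isomerase and the brightest probe of upper glycolysis, stood at 14.12, 14.01 and 13.90 in ACC1 overexpression and 14.05, 14.04 and 14.15 in wild type. Its groups overlapped, and its difference of −0.07 turned positive with a common median and with cyclic loess. The kinases that start glycolysis and the isomerase after them lay between these: HXK1 (hexokinase) differed by 0.09, GLK1 (glucokinase) by 0.07 and PGI1 (phosphoglucose isomerase) by 0.15, with adjusted p-values from 0.264 to 0.716 in limma.

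In lower glycolysis the third wild type array bore on several genes, GPM1 among them. GPM1, the main phosphoglycerate mutase, read 13.85, 13.97 and 13.94 in ACC1 overexpression, against 13.16, 13.35 and 13.97 in wild type. TDH1, a glyceraldehyde 3-phosphate dehydrogenase, read 13.84, 13.87 and 13.93 in ACC1 overexpression, against 13.33, 13.26 and 13.88 in wild type. In both genes wild type replicate 3 reached the ACC1 overexpression values and the other wild type arrays lay about 0.5 or more below them. The differences were 0.43 for GPM1 (SE 0.17, adjusted p = 0.214 by limma) and 0.39 for TDH1 (SE 0.14, adjusted p = 0.173 by limma).

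ENO2, the enolase that predominates on glucose, read 13.59, 13.63 and 13.55 in ACC1 overexpression, against 13.15, 13.18 and 13.45 in wild type. The groups did not overlap, with wild type replicate 3 again the nearest to ACC1 overexpression. The difference was 0.33 (SE 0.08, adjusted p = 0.0768 by limma). ENO1, the other enolase, read 13.86, 13.85 and 13.81 in ACC1 overexpression, against 13.63, 13.54 and 13.88 in wild type, and its groups overlapped, with a difference of 0.16 (adjusted p = 0.329 by limma). CDC19, the main pyruvate kinase, stood at 13.43, 13.42 and 13.40 in ACC1 overexpression and at 13.20, 13.23 and 13.41 in wild type. Its values overlapped by a small margin at replicate 3, and its difference was 0.14 (adjusted p = 0.294 by limma).

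PGK1, phosphoglycerate kinase, ran the other way although its step lies between those of TDH1 and GPM1. It read 13.69, 13.72 and 13.71 in ACC1 overexpression, against 13.73, 13.91 and 14.31 in wild type. All wild type values lay above all ACC1 overexpression values, by a wide margin only at replicate 3, and the difference was −0.27 (SE 0.13, adjusted p = 0.264 by limma). It was the brightest probe of lower glycolysis.

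Among the remaining isoforms, GPM2 and GPM3 were dim. GPM2, a homologue of GPM1, read 11.08, 10.85 and 11.04 in ACC1 overexpression, against 10.81, 10.75 and 10.77 in wild type. It exceeded the control probes on the 3 ACC1 overexpression arrays and on none of the wild type arrays, where it was thus not well above background. Its difference missed the threshold (adjusted p = 0.130 by limma). The observed mean in ACC1 overexpression was at least 1.02-fold that in wild type, a bound that takes no account of the spread between arrays. The bound compares the ACC1 overexpression mean with a floor on each wild type array: the dimmest gene still above the controls, or GPM2 itself if brighter. With a common median (adjusted p = 0.0209 by limma) and with normexp background correction (adjusted p = 0.0461 by limma) GPM2 passed the threshold, but as it was not above background in wild type no size is given for these. Under normexp 3.88% of all genes passed and no other of the 33. GPM3, a further homologue, was above the control probes on no array and gets no fold. PYK2, the pyruvate kinase that glucose represses, had a difference of −0.09 with an interval from −0.26 to 0.08.

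The spread within the groups was uneven in lower glycolysis. The median SD of its 9 genes was 0.04 in ACC1 overexpression and 0.17 in wild type, and the wild type SD was the larger in 8 of 9. Over all 33 genes the wild type SD was the larger in 26 (78.8%), beside 61.9% of all genes on the array. Wild type replicate 3 exceeded wild type replicate 1 by a median of 0.24 in lower glycolysis and 0.11 in upper glycolysis, beside 0.02 over all genes.

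Without wild type replicate 3, the threshold was met by 8 of the 33 genes (24.2%), beside 12.6% of all genes. FBA1, TDH1, GPM1, ENO1, ENO2 and LAT1 were higher in ACC1 overexpression and PFK1 and PFK26 lower. The differences were then 0.67 for GPM1 (adjusted p = 0.0011 by limma), 0.58 for TDH1 and for FBA1, and 0.42 for ENO2, while PGK1 came to −0.11 (adjusted p = 0.344 by limma). Wild type replicate 3 was the highest wild type array in each of these genes, so leaving it out had to raise each difference. These p-values are therefore no separate support. Leaving out any other array gave 0 of 33. With array weights 12 of the 33 genes (36.4%) passed, beside 18.0% of all genes, with weights of 0.44, 3.60 and 0.48 for wild type replicates 1 to 3. The estimation of these weights stopped before it converged, so they and the calls made with them are provisional. Leaving out wild type replicate 1 gave 0.26 for GPM1, below FBA1 (0.32) and LAT1 (0.31). ENO1 came to 0.09 without wild type replicate 2 and to 0.25 without wild type replicate 3.

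**Figure D3:**
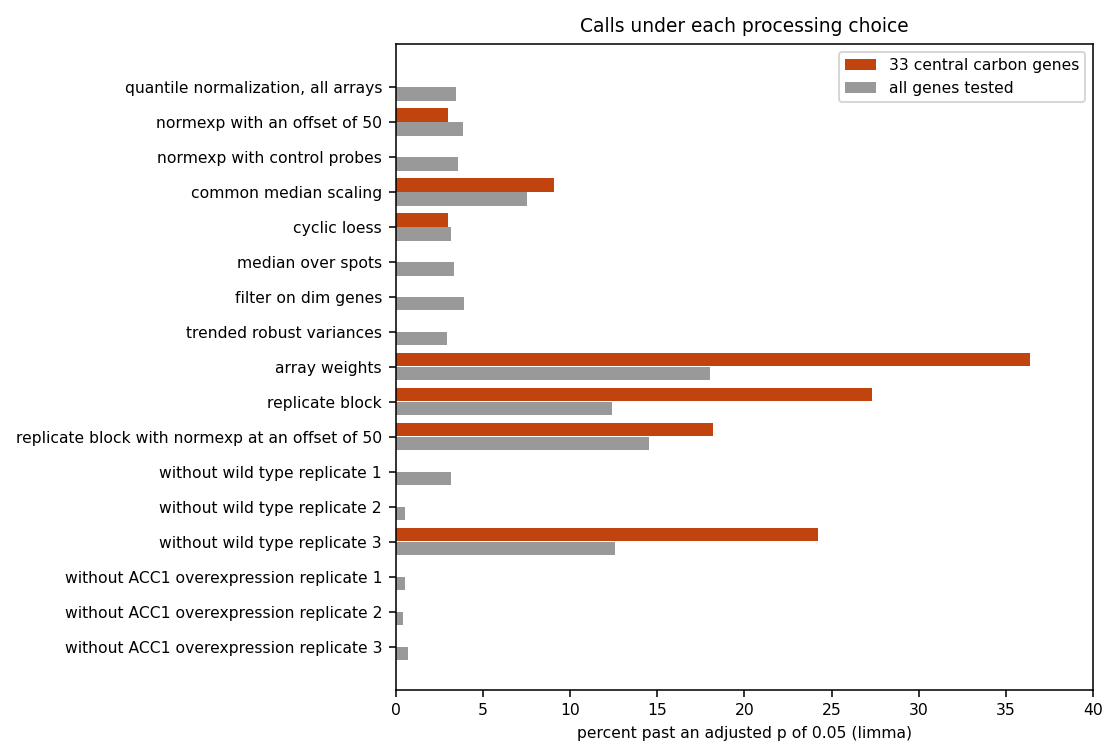
Percent of the 33 central carbon genes (orange) and of all genes tested (grey) that passed an adjusted p of 0.05 in limma, for each processing choice and with each array left out. The orange bar is longest with array weights (36.4%), followed by the replicate block (27.3%) and the fit without wild type replicate 3 (24.2%).

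The replicate number also matches the layout position of the array, as the row numbering of the scanner tables gives it, and differences were read within each position. In lower glycolysis the median difference was 0.23 at position 1, 0.19 at position 2 and 0.00 at position 3. In upper glycolysis it was 0.10, 0.13 and −0.09, and in the pentose phosphate pathway −0.01, 0.02 and −0.10. Positive differences were found for 20, 21 and 9 of the 33 genes at positions 1 to 3, beside 506, 461 and 456 of all 979 genes. With the position, and so the replicate number, as a block in limma, 9 of the 33 genes (27.3%) passed an adjusted p of 0.05, beside 12.4% of all genes. FBA1, TDH1, GPM1, GPM2, ENO2, LAT1 and FBP1 were then higher in ACC1 overexpression and PFK1 and PFK26 lower. Whether arrays at the same position were processed together is not stated in the labels.

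**Figure D4:**
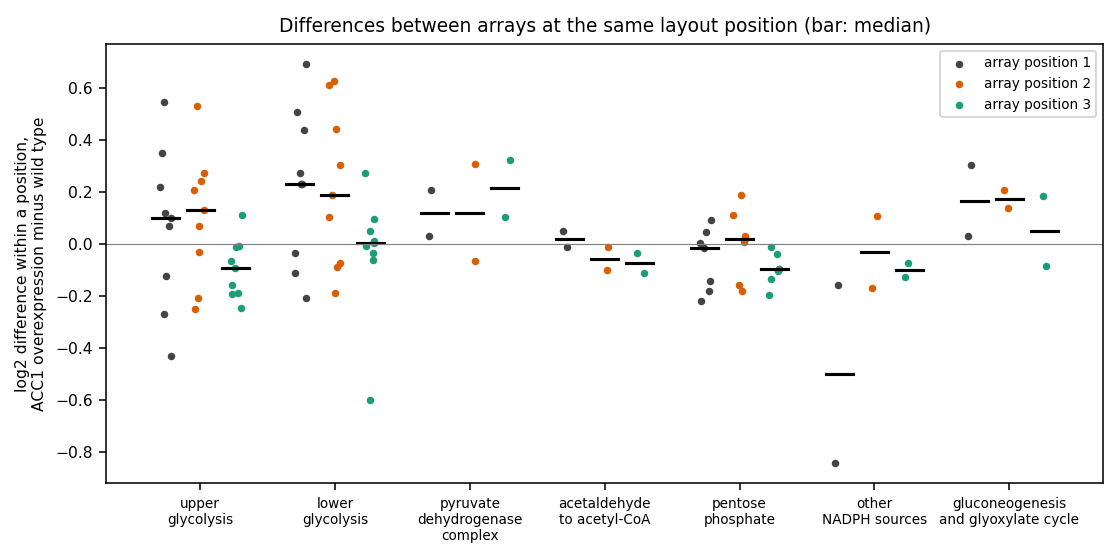
Log2 difference of each gene between the ACC1 overexpression and the wild type array at the same layout position (vertical axis), by sub-pathway (horizontal axis), with a bar at the median. In lower glycolysis the medians are 0.23, 0.19 and 0.00 at positions 1 to 3.

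Of the branches that lead from pyruvate to acetyl-CoA, LAT1 had the largest difference. LAT1, the dihydrolipoamide acetyltransferase of the mitochondrial pyruvate dehydrogenase complex, read 12.26, 12.18 and 12.36 in ACC1 overexpression, against 12.05, 11.87 and 12.04 in wild type. The groups did not overlap, and every position gave a positive difference (0.21, 0.31 and 0.32). In lower glycolysis 3 of 9 genes were positive at every position. The difference of LAT1 was 0.28 (SE 0.07, adjusted p = 0.0784 by limma) and lay between 0.22 and 0.43 over all settings tried. Without wild type replicate 3 LAT1 passed the threshold (adjusted p = 0.0401 by limma), and without any other single array it did not. PDX1, the component that anchors dihydrolipoamide dehydrogenase in the complex, read 10.60, 10.48 and 10.66 in ACC1 overexpression, against 10.57, 10.55 and 10.55 in wild type. Its groups overlapped, and it exceeded the control probes on no array and gets no fold.

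In the cytosolic route, ACS2, the acetyl-CoA synthetase used on glucose, read 12.09, 12.00 and 12.21 in ACC1 overexpression, against 12.04, 12.01 and 12.24 in wild type. These values nearly coincided, and the 95% interval of the difference ran from −0.18 to 0.19. ALD2, a stress-induced cytoplasmic aldehyde dehydrogenase, read 11.57, 11.55 and 11.53 in ACC1 overexpression, against 11.58, 11.65 and 11.64 in wild type. The groups failed to overlap by a margin of only 0.0096, and the difference was −0.07 (adjusted p = 0.486 by limma).

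As analysed, without background correction, the pentose phosphate genes kept close to 0. ZWF1, glucose 6-phosphate dehydrogenase and the entry step of the pathway, read 11.47, 11.40 and 11.46 in ACC1 overexpression, against 11.68, 11.56 and 11.50 in wild type. All wild type values were the higher, and the difference was −0.14 (SE 0.06, adjusted p = 0.272 by limma). SOL1, which belongs to the family of the 6-phosphogluconolactonases, read 11.81, 11.87 and 11.72 in ACC1 overexpression, against 11.76, 11.68 and 11.73 in wild type, with overlapping groups and a difference of 0.08. The lactonases SOL3 and SOL4, their relative SOL2, and the 6-phosphogluconate dehydrogenases GND1 and GND2 differed by −0.07 to −0.02, with adjusted p-values of 0.590 or more in limma. SOL3 was above the control probes on no array, and GND1 on 1 array of each group, so their values carry little information.

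Outside that pathway, IDP3, the peroxisomal NADP-dependent isocitrate dehydrogenase, read 12.10, 12.08 and 11.96 in ACC1 overexpression, against 12.95, 12.24 and 12.08 in wild type. A single array, wild type replicate 1, set most of its difference of −0.38 (SE 0.19, adjusted p = 0.299 by limma), which came to −0.12 without that array. MAE1, the mitochondrial malic enzyme, read 11.38, 11.46 and 11.30 in ACC1 overexpression, against 11.54, 11.35 and 11.38 in wild type, and its groups overlapped.

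The genes of gluconeogenesis are given in turn, and no difference between them was tested. FBP1, fructose 1,6-bisphosphatase, read 12.35, 12.47 and 12.48 in ACC1 overexpression, against 12.05, 12.26 and 12.29 in wild type. The groups did not overlap, and the difference of 0.23 (SE 0.08, adjusted p = 0.142 by limma) was positive at each position (0.30, 0.21 and 0.19). PCK1, phosphoenolpyruvate carboxykinase, read 12.14, 12.34 and 12.23 in ACC1 overexpression, against 12.11, 12.20 and 12.31 in wild type, with overlapping groups and an interval of the difference from −0.14 to 0.20.

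Alternative isoenzymes and opposed steps were compared within each array, as the log2 signal of the first gene minus that of the second, for the 6 pairs with both genes measured. The exact two-sided permutation test over 20 assignments of arrays cannot give a p below 0.1 here. FBP1 and PFK1 catalyse opposite directions of the same step, and their difference was 0.30 ± 0.09 in ACC1 overexpression and −0.21 ± 0.28 in wild type (SD, n = 3 each, exact permutation p = 0.1, adjusted p = 0.3). The groups were 0.51 apart, with values of 0.73, 0.42 and 0.38 at positions 1 to 3 and no overlap between the groups. The wild type arrays read −0.54, −0.06 and −0.04, so wild type replicate 1 set part of that distance. PFK1 is only a subunit of phosphofructokinase, and PFK2, the other subunit, had a difference of 0.13. The value therefore holds for PFK1 alone, and FBP1 was not compared with PFK2. ENO1 minus ENO2 was 0.25 ± 0.03 in ACC1 overexpression and 0.42 ± 0.06 in wild type (SD, n = 3 each, exact permutation p = 0.1, adjusted p = 0.3). The difference between the groups, −0.17, was −0.03 with a common median and −0.07 with cyclic loess. It was −0.12 with the median over spots and −0.20 with normexp at an offset of 50. As these probes differ by 1 base, the value may not separate the isoenzymes. The groups differed by −0.23 in PYK2 minus CDC19 and by −0.11 in PCK1 minus CDC19, both with overlapping groups and an adjusted p of 0.6 (exact permutation test). The pairs of GPM2 with GPM1 and of GND2 with GND1 get no value here, because GPM2 was above the control probes on no wild type array and GND1 on 1 array of each group.

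Genes that adjoin these pathways were counted from 6 further lists. Of 95 listed genes 36 were measured, and 2 passed the adjusted p of 0.05, beside 3.47% of all genes. Both were higher in ACC1 overexpression and belonged to the 10 measured neighbours of pyruvate and acetate. PYC1, a pyruvate carboxylase and like acetyl-CoA carboxylase a biotin enzyme, rose by 0.49 (SE 0.08, adjusted p = 0.0193 by limma). It missed the threshold without wild type replicate 2 or any single ACC1 overexpression array (adjusted p from 0.0839 to 0.112 by limma). ADH2, the glucose-repressed alcohol dehydrogenase that oxidises ethanol, rose by 0.75 (SE 0.08, adjusted p = 0.00135 by limma). None passed in the other lists. The gene of smallest p was HAP4 among 7 regulators of carbon metabolism (0.22, adjusted p = 0.141), PRS4 among 7 remaining pentose phosphate and NADP genes (0.17, adjusted p = 0.130) and RHR2 among 6 genes of the glycerol branch (0.17, adjusted p = 0.214). In the list of 5 glyoxylate and malate shuttle genes it was DAL7, which exceeded the control probes on no array, and MTH1 was the only one measured of 24 genes of hexose transport and glucose sensing (−0.07).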

How the data were processed

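Per the file headers, the authors deposited scanner tables with 1 median foreground intensity per spot and no background column, and the sources used here do not say whether background had been subtracted. The authors' deposited value table was not used, because its rows could not be tied to probes. After log2 transformation, the yeast spots were quantile normalized without the 26 control probes, and each probe was averaged over its spots. Groups followed the sample labels. They were compared with limma 3.58.1 in R 4.3.3 (lmFit and eBayes, two-sided), adjusted by Benjamini-Hochberg over all 979 genes, at a threshold of 0.05. The fit was also run on simulated data with independent noise, the same spread in both groups and no replicate effect. That run therefore cannot show how the fit behaves with unequal spread or a replicate effect. Gene symbols came from the files, and the R64 table of RefSeq served for names only. Probe sequences are those of the scanner tables. With 3 arrays per group, the number of arrays limits the precision.

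The genes and all lists were chosen with earlier results of these data known. Values on every array are given for the 2 genes of smallest p and the 1 of highest mean intensity in each sub-pathway, and for any gene past the threshold. FBA1, TDH1, GPM1, ENO1 and CDC19 were added after their values were seen. Alternatives covered background correction, normalization, the summary over spots, a filter on dim genes, variance moderation, each array left out, array weights, a block on the replicate number, and the threshold.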

Additional observations from a re-analysis of the deposited data

How the results depend on the processing

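The count of the 33 genes past the threshold, 0 as analysed, was 1 with normexp at an offset of 50 (GPM2), 1 with cyclic loess (PFK26), 3 with a common median (GPM2, PFK1 and PFK26), 12 with array weights (their estimation did not converge), 9 at an unadjusted p of 0.05, 4 at an adjusted p of 0.10, and 0 to 8 with each array left out, the 8 being without wild type replicate 3. The count over all genes, 34 as analysed, was 74 with a common median, 176 with array weights, and 4 to 123 with each array left out (123 without wild type replicate 3, and 4 to 7 without wild type replicate 2 or any ACC1 overexpression array). The median of lower glycolysis was 0.30 with a common median, and that of the pentose phosphate pathway −0.13 with normexp on the control probes. With each array left out, the medians ran from 0.00 to 0.18 in upper glycolysis (just below 0 without wild type replicate 2), 0.11 to 0.21 in lower glycolysis and −0.08 to −0.02 in the pentose phosphate pathway. Of 524 values of single genes under an alternative, 484 kept their side of the threshold and 40 passed it only there. A common median turned the sign of 7 genes, TPI1, SOL3, GND1, PCK1, ACS2, GPM3 and PFK27, as the median over all genes, −0.01 as analysed, moved to 0.05.

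Deviations from the group means correlated at 0.47, −0.02 and 0.39 between arrays of the same replicate number. These values differed between the numbers, so they do not decide whether the arrays were paired. The labels do not state a pairing, and the fit as analysed took none. With the replicate block, 9 of the 33 genes and 121 of all genes (12.4%) passed, and with the block and normexp 6 and 142 (14.5%). The cause of these changes was not tested. GPM3, PDX1 and SOL3, above the control probes on no array, and GPM2 and GND1, above them on part of the arrays, are limited by signal over background.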
